A study of Mus musculus with 52 samples.

Results

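Bone marrow of 12-week-old female mice was compared between 9 MMTV-NeuT transgenic animals (NeuT+) and 9 non-transgenic siblings (NeuT-), chosen by the genotype and age in the sample titles. These 18 arrays are part of a series of 52, which also holds 18 mice at 6 weeks, 11 mice at 24 weeks and reference RNA. Every mouse was BALB\c per the labels, untreated as far as the labels say, and gave 1 array. The MMTV-NeuT transgene is an activated form of rat Erbb2 driven by the mouse mammary tumor virus promoter, which is active mainly in mammary epithelium. The labels grade the mammary glands of the 12-week NeuT+ mice as early carcinoma in 8 and severe dysplasia in 1. Those of the NeuT- mice are graded normal in 8 and as mild or moderate dysplasia in 1. A tumor burden was recorded for 6 NeuT+ mice and ran from 39293 to 798790, in a unit that the labels do not give. The comparison asks whether the marrow differs at an age when most NeuT+ mice were graded as early carcinoma. The arrays were Illumina mouseWG-6 v2.0 bead arrays, on which each gene is read as the brightness of probe-coated beads.

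Marrow makes granulocytes, monocytes, lymphocytes, red cells and platelets. In mice with growing tumors it is known for emergency granulopoiesis, a stepped-up production of granulocytes, and for releasing immature myeloid cells, some of which can suppress T cells. NF-kB transcription factors are held in the cytoplasm by IkB proteins, switch on inflammatory genes and induce their own inhibitors, which close the loop. MAP kinases act through serum response factor and ETS factors to switch on immediate early genes, and the phosphatases induced by the same signal switch the kinases off.

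The animal numbers of the 12-week mice fall into 3 series by their leading digits, whose meaning is not given. Series 11 held 3 NeuT+ and 2 NeuT- mice, series 12 held 3 and 3, and series 15 held 3 and 4, so each held both genotypes. Series 12 joins 2 ranges of animal numbers, 1 with NeuT- replicates 3 and 4 alone and 1 with its 3 NeuT+ mice and NeuT- replicate 5. Genes were tested with limma over all 47 mice, blocking on series within age, and p-values were adjusted over 11309 genes. The 18 arrays each had between 15252 and 16232 detected probes and correlated with each other between 0.984 and 0.996. NeuT- replicate 1 stood farthest from the typical profile, with an interquartile range of relative log expression of 0.432, followed by NeuT+ replicate 2 at 0.416 and NeuT- replicate 2 at 0.389. All 3 belong to series 11. Marrow markers were high in all samples: Ltf and Mpo, granule genes of neutrophils and their precursors, had log2 levels from 15.85 to 16.01 in every mouse. The keratins Krt8, Krt18 and Krt14, the mouse Erbb2 probe and the muscle actin Acta1 were detected in none of the 18.

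At 12 weeks 17 of 11309 genes passed adjusted p 0.05 (0.15%), of which 14 were higher (0.124%) and 3 lower (0.0265%) in NeuT+ mice. Peg3 stood apart at a log2 change of 6.33. The other called genes changed by 0.30 to 1.08 log2 units in absolute value, and 4 genes, Peg3, Trem1, Dusp5 and Tnfaip3, passed a 2-fold change. The genes that rose were inhibitors of NF-kB (Nfkbid, Nfkbib, Tnfaip3), the inflammatory receptor Trem1, stress and death genes (Ddit3, Bbc3), genes of kinase and calcium signaling (Dusp5, Srf, Ets2, Ppp3ca), and Peg3, Cd160, Apold1 and Osr2. Those that fell were H2ac8, Dph2 and Qprt. All 17 genes had the same direction in each of the 3 series, and 13 were detected on all 18 arrays. At an unadjusted p under 0.05 there were 985 genes (8.71%), and the median log2 change over all genes was -0.01.

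The count depended on single mice. Leaving out NeuT- replicate 1 left 2 genes, and leaving out NeuT- replicates 4, 8 or 9 left 9, 5 or 8. Without NeuT+ replicates 2, 3, 4, 5, 7 or 8 there were 8, 11, 7, 9, 6 or 5. Leaving out NeuT- replicate 2 gave 32 genes and leaving out NeuT- replicate 6 gave 41. NeuT- replicate 6 was the highest NeuT- mouse in 8 of the 14 higher genes, and NeuT- replicate 1 was the lowest in 6 of them. Without series 15 Peg3 alone was called, and 4 and 10 genes were called without series 11 and series 12. With number range in place of series as the block 16 genes were called, 11 of them among the 17, and H2ac8, Ppp3ca, Ets2, Tnfaip3, Srf and Qprt lost the call. No called gene changed direction in any of these fits.

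**Figure D1:**
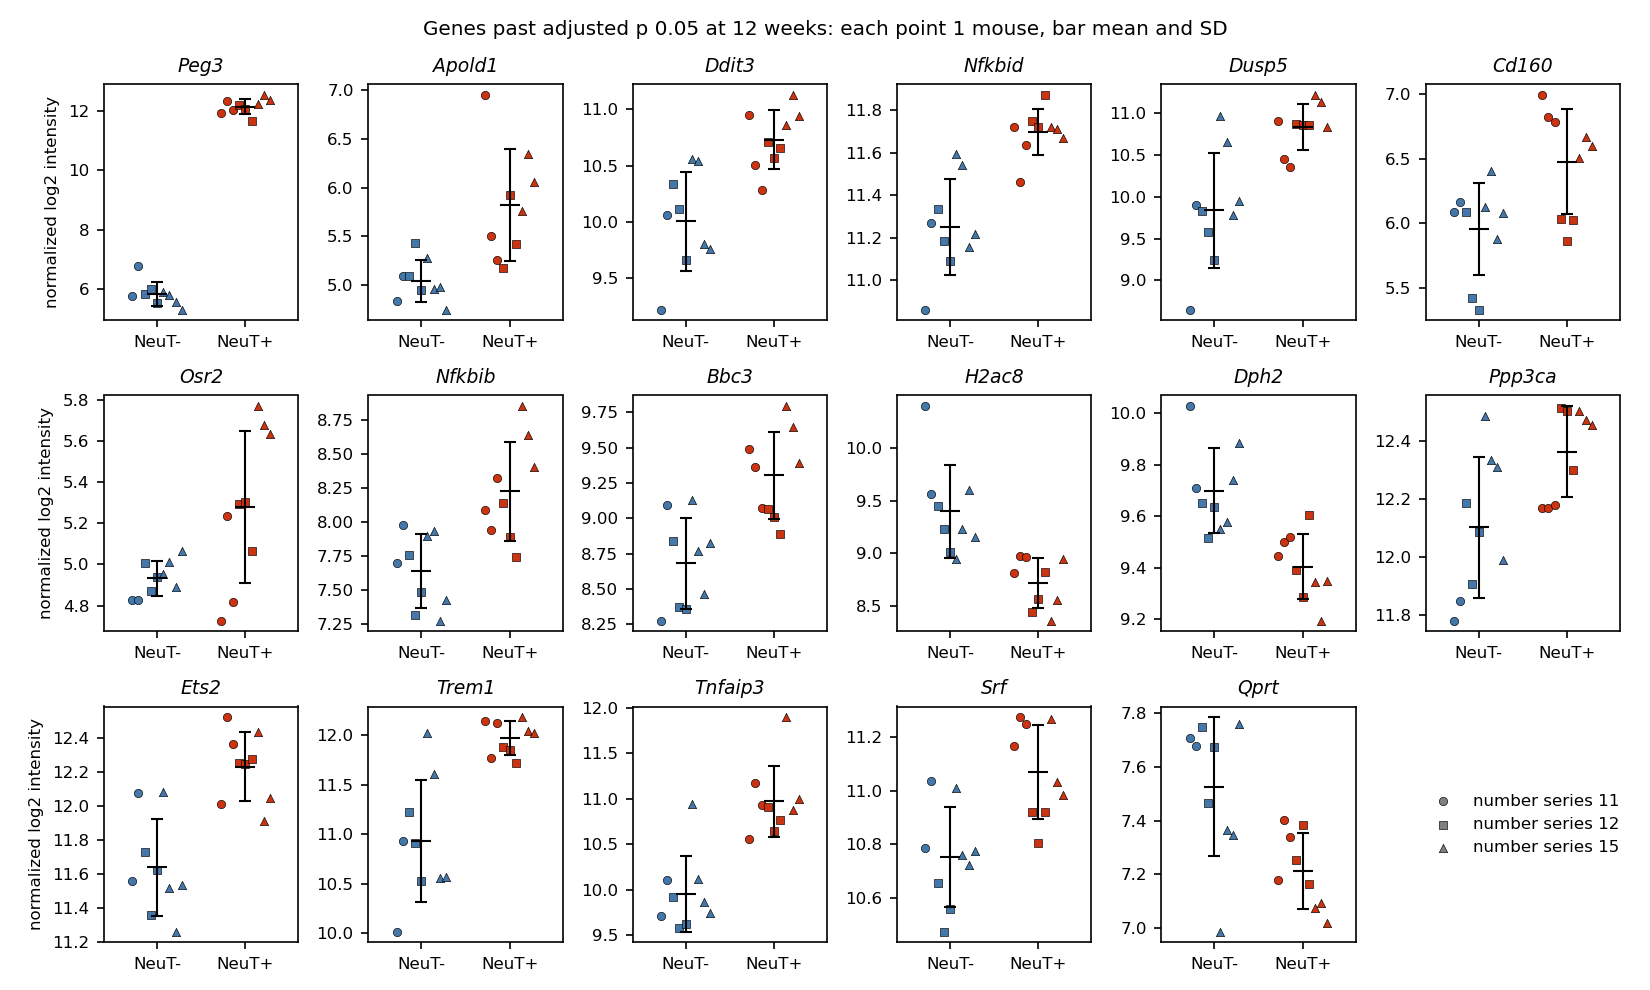
Normalized log2 intensity of the 17 called genes in each of 9 NeuT- and 9 NeuT+ mice at 12 weeks, with the mean and SD as bars and the number series as marker shape. Peg3 separates the genotypes by more than 4 log2 units, while in the other genes the ranges overlap and NeuT- mice spread more widely in Dusp5 and Trem1.

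Peg3 encodes a zinc finger protein and is imprinted, expressed from the paternal copy alone. Its raw intensity ran from 3526.0 to 5885.8 in the NeuT+ mice with a median of 5175.2, and from 119.7 to 185.7 in the NeuT- mice with a median of 152.3. The genotypes did not overlap, and 1 of 9 NeuT- mice, replicate 2, had a detected signal. The log2 change was 6.33 ± 0.154 (SE, n = 9 and 9, adjusted p = 2.35e-30). Its size is set against signals near background and moved with the processing, to 4.97 on the deposited log2 values, 4.92 without background correction and 4.26 with the mean of detected probes, so no fold is given. Within series 11, 12 and 15 it was 5.84, 6.21 and 6.76. Of the other 3 probes 1 gave 5.00, a dim one gave 1.46 and 1 was detected on no 12-week array. The neighboring genes were taken from the order of the RefSeq assembly GRCm38.p6. Zim1 and Usp29, the imprinted genes on either side, were detected in none of the 18 mice, Aurkc was detected in 1 NeuT- mouse, and Zfp954, a zinc finger gene, had a log2 change of 0.08 (adjusted p = 0.88). Of 16 measured genes in a list of imprinted genes, Peg3 alone passed. Impact, a translation regulator imprinted in mouse, had a log2 change of 0.32 (adjusted p = 0.245), Dlk1, a Notch-like ligand detected in no mouse, stood lower in 8 of 9 NeuT+ mice than the NeuT- median, and the tetraspanin Cd81 had -0.13 (adjusted p = 0.673).

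The promoter of Peg3 is shown because this gene carries the widest difference. The window covers 250 bases before and 50 after the RefSeq start, on the minus strand of GRCm38.p6 at chr7:6730370-6730669, and the capitals mark a match to the cyclic AMP response element TGACGTCA, 178 bases before the start.
Peg3: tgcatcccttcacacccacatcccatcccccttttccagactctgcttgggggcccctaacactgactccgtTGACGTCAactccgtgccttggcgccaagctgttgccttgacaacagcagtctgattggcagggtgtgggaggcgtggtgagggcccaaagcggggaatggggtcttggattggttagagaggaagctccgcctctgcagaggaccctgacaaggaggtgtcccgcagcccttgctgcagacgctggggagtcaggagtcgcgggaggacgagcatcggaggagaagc

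Of the NF-kB inhibitors 3 rose in NeuT+ marrow. Nfkbid, a nuclear IkB protein, had log2 levels of 11.46 to 11.87 in NeuT+ mice (median 11.72) and 10.86 to 11.59 in NeuT- mice (median 11.22). The NeuT+ mice lay above every NeuT- mouse in 8 of 9 cases, and the log2 change was 0.47 ± 0.0905 (SE, n = 9 and 9, adjusted p = 0.0149). Nfkbib, which encodes IkB beta, ran from 7.74 to 8.85 in NeuT+ mice (median 8.14) and from 7.27 to 7.98 in NeuT- mice (median 7.70). Its change was 0.60 ± 0.124 (SE, adjusted p = 0.025) and was largest in series 15, at 1.00 against 0.28 and 0.41 in series 11 and 12. Tnfaip3, which encodes the ubiquitin-editing enzyme A20, ran from 10.55 to 11.90 in NeuT+ mice (median 10.91) and from 9.58 to 10.95 in NeuT- mice (median 9.86). NeuT- replicate 6 was the only NeuT- mouse within the NeuT+ range, and the change was 1.06 ± 0.236 (SE, adjusted p = 0.0457), with 0.98, 1.07 and 1.09 in the 3 series. Of 32 other settings and left-out mice, the call was lost in 5 for Nfkbid, 11 for Nfkbib and 20 for Tnfaip3.

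These 3 genes are members of a list of 15 measured NF-kB inhibitors and feedback genes, of which 3 rose and none fell, with a median log2 change of 0.10 against -0.01 over all genes. Zc3h12a, an RNase that degrades inflammatory messages, had a log2 change of 0.41 ± 0.0985 (SE, adjusted p = 0.0686). In all 6 of the 15 had an unadjusted p under 0.05 and a higher level, beside 4.09% of all genes. These 6 include the 3 called genes, and the list was chosen with earlier results of these data known. The mean of the list per mouse, centered on the 18 mice, differed by 0.29, 0.24 and 0.20 within series 11, 12 and 15. Of 15 measured NF-kB subunits and kinases none passed limma's adjusted threshold, and the median was -0.03. At an unadjusted p under 0.05, 1 was higher and 1 lower, beside 4.09% and 4.62% of all genes. Relb and Rel, subunits of the factor, had log2 changes of 0.22 and 0.24 (adjusted p = 0.519 and 0.685), Tab1, a kinase adaptor, had -0.18 (adjusted p = 0.435), and Nfkb2 was detected in no mouse at this age.

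The promoter windows of Nfkbid, Tnfaip3, Dusp5 and Bbc3 are shown because these called genes share a match to an NF-kB type motif. The motif, searched on both strands, was written as a run of 3 G, any 3 bases and TTCC. Nfkbid has 3 windows, Bbc3 3 and Tnfaip3 2, and the windows shown were picked for holding the most matches to it. They are RefSeq windows of GRCm38.p6, printed along the strand of the gene, with matches in capitals: Nfkbid on the plus strand at chr7:30422156-30422455, Tnfaip3 on the minus strand at chr10:19015361-19015660, Dusp5 on the plus strand at chr19:53528895-53529194 and Bbc3 on the plus strand at chr7:16309333-16309632.
Nfkbid: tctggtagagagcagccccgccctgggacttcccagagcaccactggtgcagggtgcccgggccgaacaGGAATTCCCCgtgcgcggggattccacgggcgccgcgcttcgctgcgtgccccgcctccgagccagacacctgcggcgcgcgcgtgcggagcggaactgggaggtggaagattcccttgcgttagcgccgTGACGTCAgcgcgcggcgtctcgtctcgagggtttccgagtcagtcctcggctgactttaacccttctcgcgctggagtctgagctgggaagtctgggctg
Tnfaip3: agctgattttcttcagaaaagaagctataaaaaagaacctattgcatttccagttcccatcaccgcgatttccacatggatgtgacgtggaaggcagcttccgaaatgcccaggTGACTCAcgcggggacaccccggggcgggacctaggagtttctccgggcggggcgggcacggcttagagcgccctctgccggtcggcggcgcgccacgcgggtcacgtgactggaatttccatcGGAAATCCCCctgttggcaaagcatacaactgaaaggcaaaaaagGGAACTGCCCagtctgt
Dusp5: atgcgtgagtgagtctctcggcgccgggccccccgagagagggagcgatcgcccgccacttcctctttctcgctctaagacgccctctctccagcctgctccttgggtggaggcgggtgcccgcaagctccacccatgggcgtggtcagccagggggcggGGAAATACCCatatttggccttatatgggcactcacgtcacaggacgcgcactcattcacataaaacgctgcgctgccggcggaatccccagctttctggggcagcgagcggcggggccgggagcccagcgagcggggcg
Bbc3: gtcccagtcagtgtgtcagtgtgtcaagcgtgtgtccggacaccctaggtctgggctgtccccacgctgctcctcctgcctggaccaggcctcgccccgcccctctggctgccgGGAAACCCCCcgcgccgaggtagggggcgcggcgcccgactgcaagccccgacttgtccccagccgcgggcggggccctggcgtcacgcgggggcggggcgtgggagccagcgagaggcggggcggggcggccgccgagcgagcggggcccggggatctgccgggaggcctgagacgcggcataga

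The NF-kB type match lay 181 bases before the start in Nfkbid, 136 in Bbc3, 90 in Dusp5 and 12 in Tnfaip3, which held a further match behind its start. Nfkbid also held the cyclic AMP element 51 bases before its start, and Tnfaip3 the AP-1 motif TGACTCA 136 bases before. No 2 matches overlapped. The window of Nfkbib, the other called NF-kB inhibitor, held no match to any motif searched and is not shown. Of the 17 called genes 14 had a window in the RefSeq table. The NF-kB type motif was present in 5 of them (35.7%), Bbc3, Cd160, Dusp5, Nfkbid and Tnfaip3, beside 7.03% of 9160 tested genes and 5.56% of all 32851 windows. The cyclic AMP element was present in 2 (Nfkbid, Peg3) beside 3.38% of tested genes, and the AP-1 motif in 2 (Ddit3, Tnfaip3) beside 4.95%. ATTGCATCA, a C/EBP-ATF type motif, and 1 spelling of the serum response element had no match in the 14. Other spellings of the serum response element and of the NF-kB motif were not searched. Unmarked letters therefore do not show that a window lacks either, and the shares hold for the searched spellings alone. The Dusp5 window printed above holds runs of A and T between CC and GG, which were not searched or marked. Genes with several windows count once if any holds the motif, and a match describes the letters alone.

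Trem1, a receptor of neutrophils and monocytes that amplifies inflammatory signals, ran from 11.72 to 12.18 in NeuT+ mice (median 12.03) and from 10.01 to 12.03 in NeuT- mice (median 10.91). NeuT+ mice were closely grouped and all above the NeuT- median, while NeuT- mice spread over 2 log2 units, with replicate 6 high and replicate 1 low. The change was 1.08 ± 0.239 (SE, n = 9 and 9, adjusted p = 0.0403), 2.12-fold, and 1.54, 0.93 and 0.90 in the 3 series. A second Trem1 probe gave 0.97. The call was lost in 18 of 32 settings.

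Trem1 was the only one of 16 measured TREM, DAP12 and C-type lectin receptor genes to pass, and the list's median was 0.09. Clec4e, which encodes the lectin Mincle, had a log2 change of 0.36, Clec7a, which encodes Dectin-1, had 0.22, and the kinase Syk had -0.16 (adjusted p = 0.442 to 0.824). None of 25 inflammatory cytokines and chemokines passed limma's threshold, while 6 were higher and 1 was lower at an unadjusted p under 0.05, beside 4.09% and 4.62% of all genes, and the median was 0.05. The chemokine Ccl4 ran from 12.72 to 13.18 in NeuT+ mice and from 11.25 to 12.86 in NeuT- mice, with a log2 change of 0.91 ± 0.232 (SE, adjusted p = 0.0884). The neutrophil chemokine Cxcl1 was dim, detected in 2 NeuT+ mice and no NeuT- mouse, and its level ran from 5.63 to 7.10 in NeuT+ mice, above all NeuT- mice, whose lowest was 4.88 and median 5.31 (adjusted p = 0.0983). The related Cxcl2 had 0.72 and the monocyte chemokine Ccl2 0.57 (adjusted p = 0.197 and 0.262).

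Among 19 measured cytokine receptors none passed limma's threshold, and the median was 0.08. At an unadjusted p under 0.05, 3 were higher, beside 4.09% of all genes. Il1r2, the decoy receptor of interleukin 1, had a log2 change of 0.68 ± 0.176 (SE, adjusted p = 0.0938). The chemokine receptors Cxcr2 and Cxcr4 had 0.34 and 0.21, and the TNF receptor Tnfrsf1b had 0.16 (adjusted p = 0.453 to 0.719). Of 17 myeloid suppressor genes none passed, and the median was 0.05. Here too 3 were higher at an unadjusted p under 0.05, beside 4.09% of all genes. Cd14, a co-receptor for bacterial lipopolysaccharide, had 0.53 ± 0.156 (SE, adjusted p = 0.147), with 7 of 9 NeuT+ mice above every NeuT- mouse. Stat3 had 0.31 and Cebpb, a driver of emergency granulopoiesis, had 0.16 (adjusted p = 0.441 and 0.632).

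A stress-response gene, Ddit3, and a cell-death gene, Bbc3, rose. Ddit3 encodes CHOP, a transcription factor made when protein folding or translation is under stress. It ran from 10.28 to 11.13 in NeuT+ mice (median 10.71) and from 9.22 to 10.56 in NeuT- mice (median 10.06). In 7 of 9 cases a NeuT+ mouse lay above every NeuT- mouse, and the change was 0.78 ± 0.142 (SE, n = 9 and 9, adjusted p = 0.00983), 0.94, 0.61 and 0.81 in the 3 series. A second Ddit3 probe gave 0.79. After Peg3 and Apold1 this was the call lost least often, in 4 of 32 settings. Bbc3 encodes PUMA, a BH3-only protein that triggers mitochondrial death and a target of p53. It ran from 8.89 to 9.79 in NeuT+ mice (median 9.36) and from 8.28 to 9.13 in NeuT- mice (median 8.77), with a change of 0.64 ± 0.134 (SE, adjusted p = 0.025). Every NeuT+ mouse lay above the NeuT- median. A second, dim Bbc3 probe, detected in 3 mice of each genotype, gave 0.05. The Bbc3 call was lost in 13 of 32 settings.

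Neither gene stood among many of its kind that passed. In a list of 28 measured genes of the unfolded protein and integrated stress response Ddit3 alone passed, and the median was 0.04. Atf3, a stress-induced factor, ran from 10.44 to 11.59 in NeuT+ mice and from 8.16 to 10.65 in NeuT- mice, a log2 change of 1.58 ± 0.401 (SE, adjusted p = 0.0854). Sesn2 and Ppp1r15a, a phosphatase subunit that restores translation, had 0.54 and 0.47 (adjusted p = 0.201 and 0.241). Bbc3 was the only one of 15 BCL2 family genes and of 13 p53 targets to pass. Pmaip1, which encodes the BH3-only protein NOXA, had 0.76 ± 0.195 (SE, adjusted p = 0.0931), and Bmf and Bak1 had 0.29 and 0.24 (adjusted p = 0.657 and 0.743). The p53 targets had 6 of 13 members higher at an unadjusted p under 0.05, beside 4.09% of all genes. Their median of 0.26 was 0.51 over genes detected on at least 9 of the 18 arrays and 0.08 without series 12. Cdkn1a, which encodes the cell cycle inhibitor p21, had 0.53, and Mdm2, the ubiquitin ligase of p53, had 0.26 (adjusted p = 0.178 and 0.158).

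Single genes of MAP kinase and calcium signaling rose as well. Dusp5, a nuclear phosphatase of ERK, ran from 10.36 to 11.21 in NeuT+ mice (median 10.86) and from 8.65 to 10.96 in NeuT- mice (median 9.83). All NeuT+ mice were above the NeuT- median, and only 2 were above NeuT- replicate 6. The change was 1.08 ± 0.209 (SE, n = 9 and 9, adjusted p = 0.0149), 2.11-fold, with 1.30, 1.31 and 0.72 in the 3 series. Ets2, a transcription factor activated by ERK, ran from 11.92 to 12.53 in NeuT+ mice and from 11.26 to 12.08 in NeuT- mice, a change of 0.57 ± 0.126 (SE, adjusted p = 0.0403). Srf, the serum response factor itself, ran from 10.81 to 11.27 and from 10.48 to 11.03, a change of 0.30 ± 0.0676 (SE, adjusted p = 0.0457) that was 0.32, 0.32 and 0.28 in the 3 series. Ppp3ca, a catalytic subunit of the calcium-dependent phosphatase calcineurin, changed by 0.30 ± 0.0665 (SE, adjusted p = 0.0403), while a second detected probe gave 0.12. The calls of Ets2, Srf and Ppp3ca were lost in 20, 23 and 21 of 32 settings.

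Of 13 measured MAP kinase phosphatases and Sprouty proteins Dusp5 alone passed, and the median was 0.21. A positive change was seen in 11, where 45.2% of all genes had one. At an unadjusted p under 0.05, 6 were higher and none lower, beside 4.09% and 4.62% of all genes. Dusp8 and Dusp10, phosphatases of the JNK and p38 kinases, had 0.54 and 0.33 (adjusted p = 0.108 and 0.373), and Dusp4 was detected in no mouse at this age. Ets2 alone passed of 16 ETS factors, where Elf2 had 0.41, Etv3 had 0.21 and Spib had -0.34 (adjusted p = 0.208 to 0.719). None of 23 immediate early genes passed limma's threshold. In this list 21 had a positive change, where 45.2% of all genes did, 13 were higher and 1 was lower at an unadjusted p under 0.05, beside 4.09% and 4.62% of all genes, and the median was 0.34. Nr4a2, an orphan nuclear receptor, had 0.79 ± 0.181 (SE, adjusted p = 0.0536) and Fosl2, an AP-1 subunit, had 0.42 ± 0.0998 (SE, adjusted p = 0.061). Ier2 went the other way, from 5.74 to 8.28 in NeuT+ mice (median 6.71) and from 6.76 to 9.18 in NeuT- mice (median 7.25; adjusted p = 0.111). The list score per mouse differed by 0.48, 0.36 and 0.19 within the 3 series, and the median was 0.55 within series 11 and 0.10 within series 15.

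**Figure D2:**
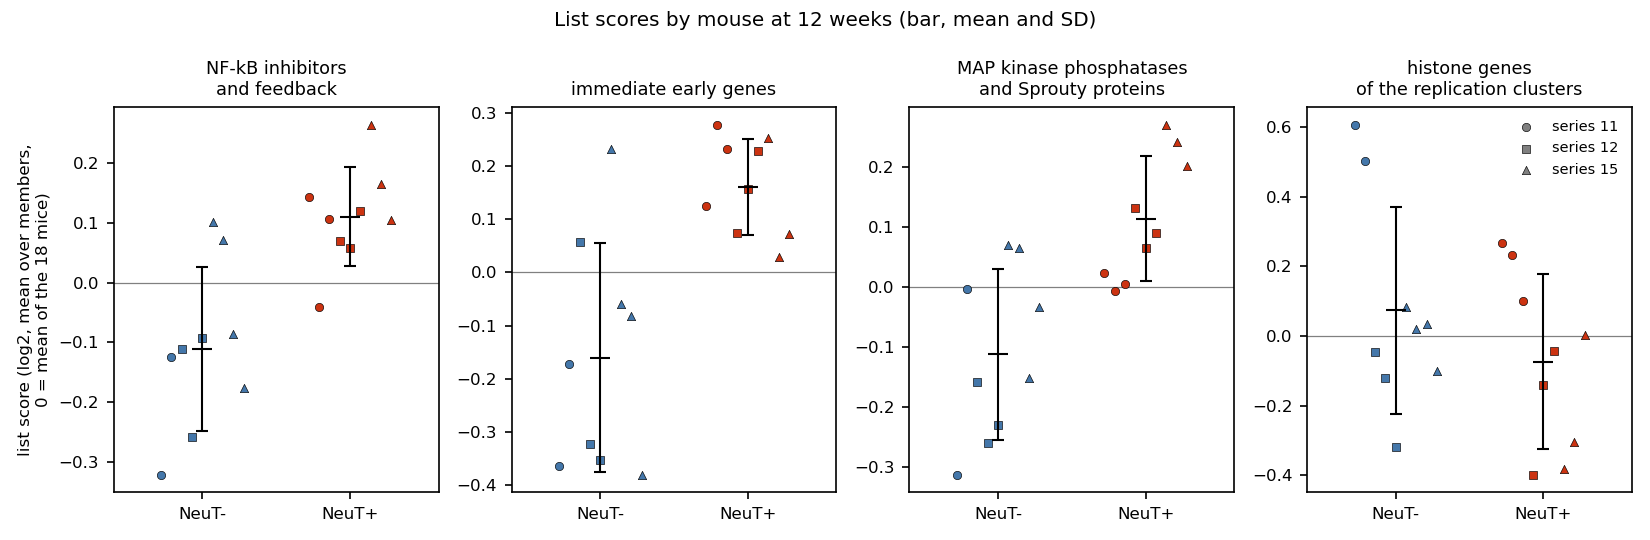
Mean log2 level over the members of 4 gene lists in each mouse, centered on the 18 mice, by genotype, with mean and SD as bars and number series as marker shape. NeuT+ mice lie higher on average in the first 3 lists and overlap NeuT- mice in all 4, and in the histone list both genotypes of series 11 lie above those of series 12.

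The genes that fell were 3. H2ac8, a histone H2A gene of the replication clusters, ran from 8.36 to 8.98 in NeuT+ mice (median 8.81) and from 8.95 to 10.40 in NeuT- mice (median 9.23). In 7 of 9 cases a NeuT+ mouse lay below every NeuT- mouse, and NeuT- replicate 1 was the highest by a wide gap. The change was -0.74 ± 0.154 (SE, n = 9 and 9, adjusted p = 0.025), 1.67-fold lower, and -1.06, -0.62 and -0.61 in the 3 series. Without NeuT- replicate 1, and in 13 other settings, it was no longer called. Probes of histone genes can bind near-identical copies, so the value may not belong to H2ac8 alone.

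Of 48 measured histone genes of these clusters H2ac8 alone passed. A negative change was seen in 34 and a positive one in 14, where 45.2% of all genes had a positive change. At an unadjusted p under 0.05, 17 were lower and 2 higher, beside 4.62% and 4.09% of all genes. The median was -0.21. H2ac6, H2bc21 and H2bc8 had log2 changes of -0.87, -0.46 and -0.43 (adjusted p = 0.106 to 0.14). The list score differed by -0.36, -0.03 and -0.24 within series 11, 12 and 15, and the highest scores, 0.61 and 0.50, were those of NeuT- replicates 1 and 2. Of 24 cell cycle genes none passed limma's threshold and none had an unadjusted p under 0.05, with a median of 0.01. The kinesin Kif11 had 0.13, the helicase subunits Mcm6 and Mcm7 had 0.12 and 0.15, and cyclin E2, Ccne2, had -0.14 (adjusted p = 0.631 to 0.848).

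Dph2, a subunit of the enzyme that starts diphthamide synthesis on elongation factor 2, ran from 9.19 to 9.60 in NeuT+ mice and from 9.51 to 10.03 in NeuT- mice. The change was -0.31 ± 0.0674 (SE, adjusted p = 0.0347), with 7 of 9 NeuT+ mice below every NeuT- mouse, and the other probes gave -0.35 and -0.32. The Dph2 call was lost in 15 of 32 settings. The other measured genes of that pathway, Dph3, Dnajc24 and Dph1, had 0.07, -0.07 and -0.04 (adjusted p = 0.908 to 0.948). Qprt, which makes nicotinate mononucleotide from quinolinate in the synthesis of NAD, ran from 7.02 to 7.40 in NeuT+ mice and from 6.99 to 7.76 in NeuT- mice. Every NeuT+ mouse lay below the NeuT- median, the change was -0.34 ± 0.0782 (SE, adjusted p = 0.0499), and the call was lost in 26 of 32 settings. Of the other 10 measured genes of NAD synthesis none passed, and the kynurenine pathway enzymes Kmo, Haao and Kynu had -0.32, -0.13 and 0.17 (adjusted p = 0.636 to 0.784).

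Another 3 called genes were near background. Cd160, a receptor of natural killer and cytotoxic T cells, was detected in 6 NeuT+ mice and 1 NeuT- mouse. It ran from 5.87 to 6.99 against 5.33 to 6.41, a change of 0.51 ± 0.0995 (SE, adjusted p = 0.0149), and within series it was 0.74, 0.36 and 0.47. The 6 NeuT+ mice of series 11 and 15 lay above every NeuT- mouse and the 3 of series 12 did not. Apold1, a gene of endothelial cells, was detected in 2 NeuT+ mice and no NeuT- mouse, with levels of 5.18 to 6.95 against 4.75 to 5.43 (adjusted p = 0.00983). Osr2, a zinc finger factor of limb and palate development, was detected in none of the 18 mice (adjusted p = 0.0149) and was tested because an array outside this age detected it. No fold is given for Apold1 or Osr2.

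The 10 genes next in order had adjusted p from 0.0536 to 0.0686 and did not pass. Besides Nr4a2, Fosl2 and Zc3h12a they held Spint1, a protease inhibitor of epithelia, at -0.44, detected in 3 NeuT+ mice and 8 NeuT- mice. They also held Amigo3, an adhesion molecule, at 0.45, Tent5c, a poly(A) polymerase, at 0.68, and Zfp866, a zinc finger gene, at -0.49. Etfbkmt, a mitochondrial lysine methyltransferase, had 0.45 ± 0.105 (SE, adjusted p = 0.0604), with levels of 6.81 to 7.40 in NeuT+ mice and 6.38 to 6.81 in NeuT- mice, the lowest NeuT+ mouse lying just above the highest NeuT- mouse. A second, dim Etfbkmt probe, detected in 2 NeuT+ mice and 1 NeuT- mouse, gave 0.04. Gpr183, an oxysterol receptor that guides lymphocytes, had 0.67 and the circadian repressor Ciart 0.65 (adjusted p = 0.061 and 0.0686). Peg3, Etfbkmt and Cxcl1 were the only 3 genes of 11309 (0.0265%) whose 9 NeuT+ and 9 NeuT- values did not overlap, all higher in NeuT+ mice, and of these Peg3 passed the test.

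Fitted on the 18 arrays alone, 26 genes were called (0.23%), 24 higher (0.212%) and 2 lower (0.0177%), and 11 of the 17 were among them. The genes added included Atf3 (adjusted p = 0.0168), Etfbkmt (0.0168), Spint1 (0.022), Pmaip1 (0.0335), Cd69, an early activation antigen of leukocytes (0.0404), Ccl4, Fosl2 (both 0.0429), Tent5c (0.0459) and Nlrp3, the inflammasome sensor (0.0473). Apold1, Osr2, Nfkbib, Dph2, Ppp3ca and Qprt lost the call, with adjusted p from 0.0676 to 0.106. Over all mice, Cd69 and Nlrp3 had log2 changes of 0.89 and 0.87 (adjusted p = 0.135 and 0.0848).

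**Figure D3:**
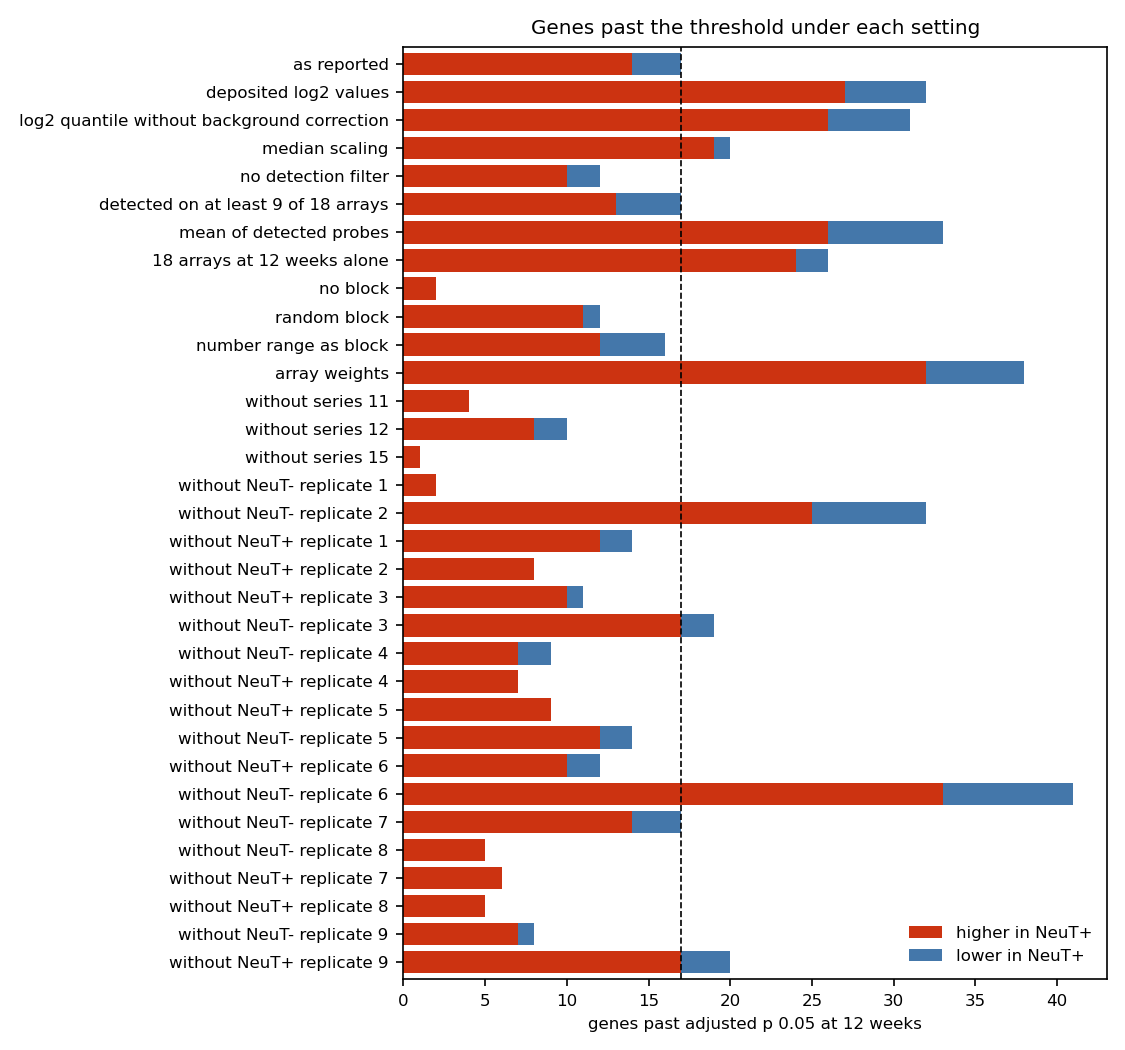
Number of genes past adjusted p 0.05 at 12 weeks, higher (red) and lower (blue) in NeuT+ mice, in the fit as reported and under each other setting or with a mouse or series left out; the dashed line marks 17. Counts run from 1 without series 15 to 41 without NeuT- replicate 6.

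The cell type lists gave no called gene. In 20 lists with 206 measured members, counting a gene once per list, none passed limma's threshold, and 7 were higher and 3 lower at an unadjusted p under 0.05, beside 4.09% and 4.62% of all genes. Their medians ran from -0.16 to 0.05. The lists of promyelocyte granules (10 members), maturing neutrophils (17), monocytes (12) and erythroid cells (15) had medians between -0.01 and 0.04, and T and NK cells had -0.05 over 11. Some members were very bright: Ltf, S100a8 and Hba-a1 had the same highest level in NeuT- mice, 16.01. Such probes may have little room to rise, so flat medians do not show an unchanged cell content. The lowest medians were those of mesenchymal stroma (-0.16 over 12), osteoblasts (-0.14 over 8), B-cell development (-0.13 over 15) and resident macrophages (-0.11 over 16). The stroma score ran from -0.57 to 0.34 in NeuT+ mice and from -0.07 to 0.39 in NeuT- mice, with 4 of its 12 members detected in no mouse at this age. The mammary list had a median of 0.05 over 11 members, 8 of them detected in none of the 18 mice. In whole marrow, fewer cells of a type and less RNA per cell cannot be told apart, and the part of cell composition in the called genes was not tested.

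Of 21 measured interferon response genes none passed limma's threshold, and the median was 0.00. At an unadjusted p under 0.05, 1 was lower, beside 4.62% of all genes. Stat2, Isg15, Mx2 and Irf1 had log2 changes of -0.24, 0.21, -0.13 and -0.07 (adjusted p = 0.373 to 0.873). Of 9 measured ERBB receptors, ligands and adaptors none passed, and the median was 0.05. At an unadjusted p under 0.05, 3 were higher, beside 4.09% of all genes. Errfi1, a feedback inhibitor of these receptors, had 0.43, and the ligands Hbegf and Nrg4 had 0.26 and 0.20 (adjusted p = 0.357 to 0.52). The Erbb2 probe, designed on the mouse gene, does not check the rat transgene.

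**Figure D4:**
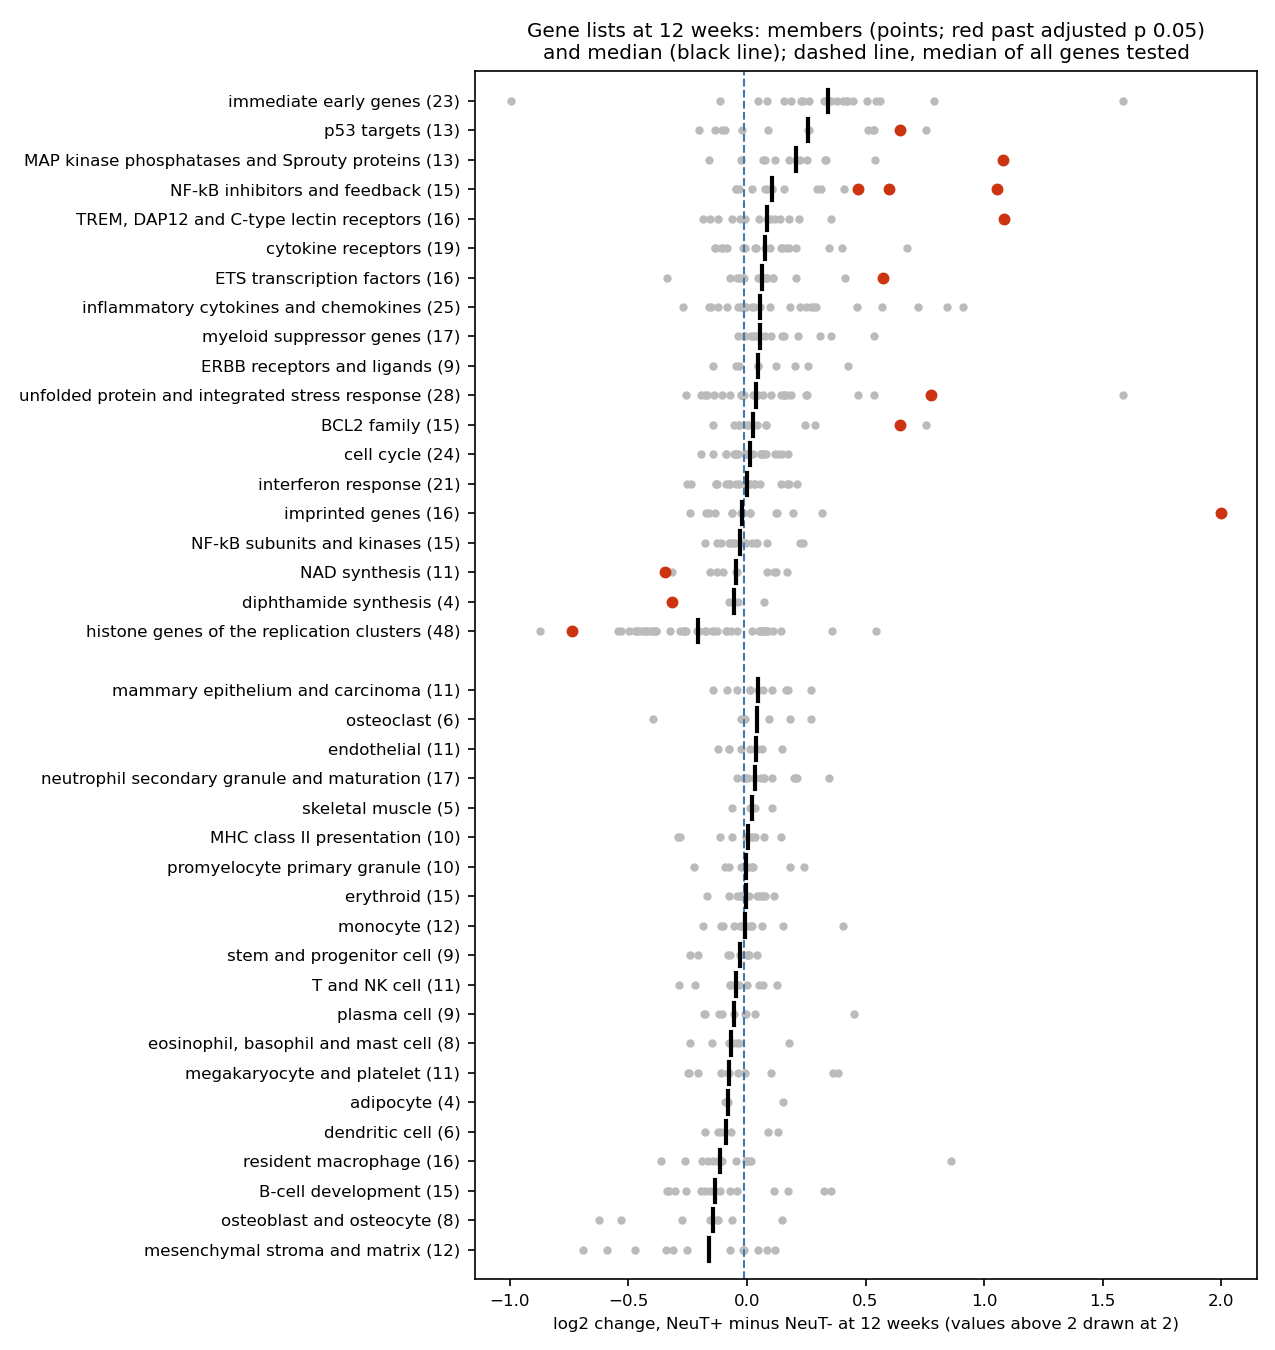
Log2 change (NeuT+ minus NeuT-) of every measured member of the pathway lists (top) and cell type lists (bottom) at 12 weeks, with the number of members in brackets and the list median as a black line. Red points passed adjusted p 0.05; Peg3, at 6.33, is drawn at 2. Immediate early genes have the highest median, 0.34, and histone genes the lowest, -0.21.

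By chromosome, 5 of the 17 called genes lay on chromosome 7 (29.4%), where 7.72% of the tested genes lie: Peg3, Nfkbid, Nfkbib, Bbc3 and Qprt. The first 4 rose and Qprt fell.

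The same contrast was measured in other mice at 6 and 24 weeks. At 6 weeks 1 gene of 11309 was called (0.00884%), Peg3, and at 24 weeks 1955 were (17.3%). Of the 17, 6 passed at 24 weeks: Peg3, Cd160, Nfkbib, Dph2, Ets2 and Trem1. Trem1 had a log2 change of 0.14 at 6 weeks, 1.08 at 12 and 1.09 at 24 weeks (adjusted p at 24 weeks = 0.0121). Dph2 had 0.09, -0.31 and -0.37, and Cd160 had 0.39, 0.51 and 0.63. All 14 higher genes had a positive change at 6 weeks, and 12 of them at 24 weeks. Of the 3 lower genes 1 had a negative change at 6 weeks and all 3 at 24 weeks.

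The differences between ages were themselves tested. The genotype effect at 12 weeks minus that at 6 weeks passed for none of 11309 genes in limma, with 598 at an unadjusted p under 0.05 (5.29%). Against 24 weeks, the effect differed for 360 genes (3.18%), more positive at 12 weeks in 265 (2.34%) and less so in 95 (0.84%), and 2 of the 17 were among them. Peg3 was higher in its effect at 12 weeks by 1.69 ± 0.251 (SE, adjusted p = 0.000249). Apold1 also passed (adjusted p = 0.0225), but it was near background, so the size of its difference is not reliable. Nfkbid changed by 0.41 at 6 weeks and 0.04 at 24 weeks, and Tnfaip3 by 0.47 and -0.16, and their differences between 12 and 24 weeks had adjusted p of 0.0918 and 0.0669. The immediate early genes had medians of 0.27, 0.34 and -0.03 at the 3 ages and the histone genes of 0.08, -0.21 and -0.14. NeuT+ mice at 24 weeks lay in series 12 and 13 and those at 12 weeks in series 11, 12 and 15, so age and series cannot be fully told apart.

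**Figure D5:**
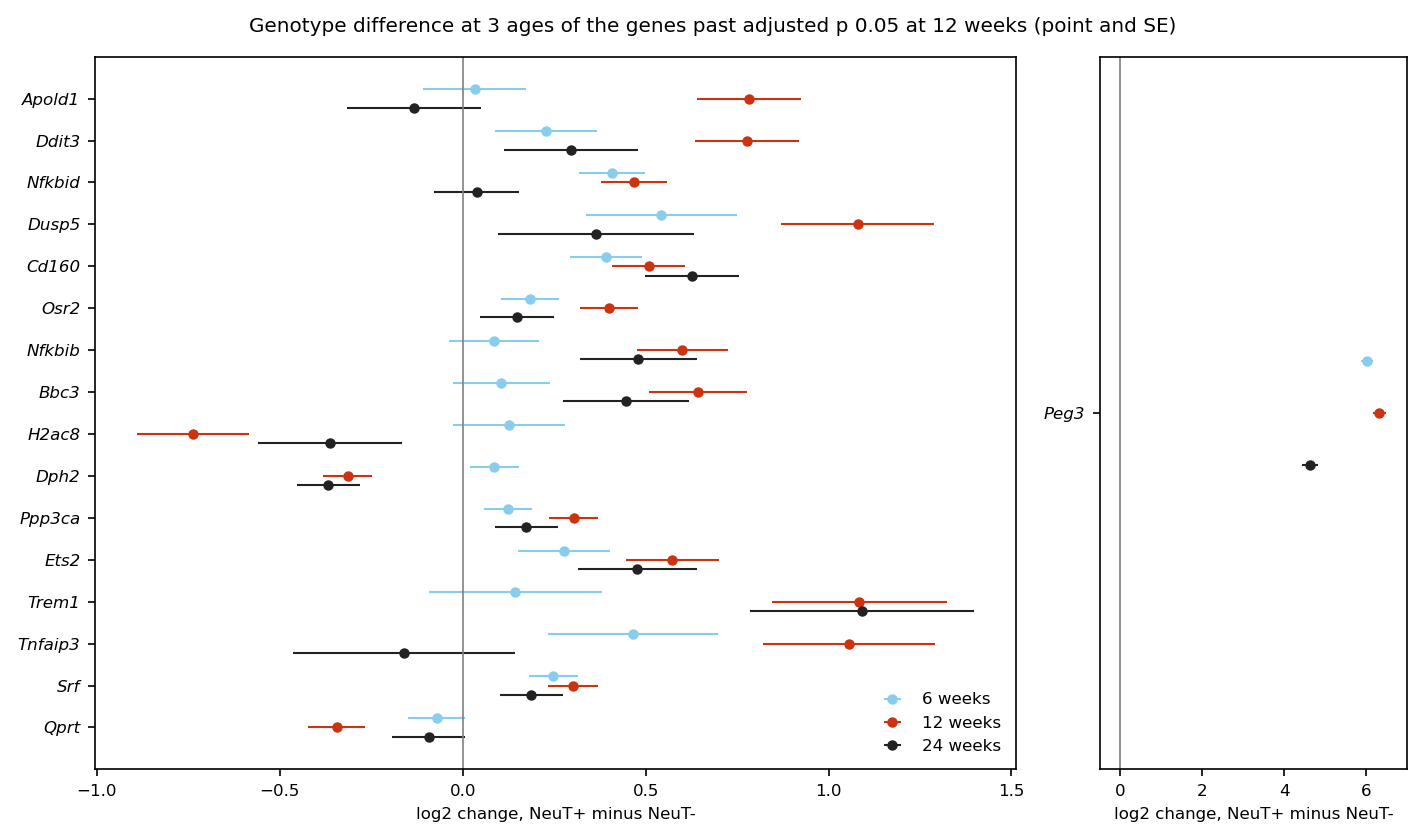
Log2 change (NeuT+ minus NeuT-) with its SE at 6, 12 and 24 weeks for the 17 genes called at 12 weeks, with Peg3 on its own axis. Trem1 and Dph2 stand at 0.14 and 0.09 at 6 weeks, and Tnfaip3 and Nfkbid at -0.16 and 0.04 at 24 weeks.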

How the data were processed

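Total RNA of bone marrow from 47 female mice was measured on 1 array each. The 5 reference arrays entered the normalization and the detection filter but not the fit, so a gene can be tested through a reference array alone. The design text gives RNA integrity numbers above 7 and names a TotalPrep kit, whereas the labels' protocol names DASL, and which was used is not settled. The authors deposited raw probe intensities on a linear scale with detection p-values, exported with BeadStudio 3.3.8 per the design text. Their deposited log2 values were normalized by robust spline with lumi, per the submitters' processing notes and the design text, and were used as an alternative. The raw intensities were corrected with limma 3.58.1 (R 4.3.3) neqc, offset 16, which also quantile normalizes, so a shift shared by all genes is removed. Of 45281 probes, 21592 had a detection p under 0.01 on at least 1 array and 18225 of these 1 symbol in GEO's platform annotation, updated through RefSeq (GRCm38.p6). The probe of highest mean stood for each of 11309 genes.

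Genes were tested with lmFit and eBayes on all 47 mice with 8 blocks of number series within age (36 residual degrees of freedom), Benjamini-Hochberg adjustment and a threshold of 0.05. Errors of changes are SE of that model. Each array is 1 animal, and precision is limited by how many arrays there are. On simulated data for the 12-week comparison over 11309 genes, 82.1% of 67 genes changed by 0.5 log2 units and all 67 changed by 1 were recovered, with 8 false calls among 196. The simulation held many more changed genes than were called here, which loosens the adjusted threshold, and drew noise independently for each gene. Recovery in the measured data can therefore be lower. Genes named are those called, the next 10 by p, the 4 members of each pathway list with the largest moderated t, and neighbors of Peg3; of cell type lists only counts, medians and scores are given. Cd69, Nlrp3 and the genes of the closing observations were named after their values were seen. The genes and lists were chosen with earlier results of these data known. A list's excess over the share of all genes is therefore not independent evidence. Alternatives changed the normalization, filter, probe rule, samples, block and weights or left out mice and series. A slide block was not run because the headers give no slide.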

Additional observations from a re-analysis of the deposited data

Results flagged for a closer look

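In 14 of 194 groups of 9 mice, for the genes named here, 1 mouse stood apart from the other 8 by Dixon's criterion, where chance gives about 9.7. In NeuT- replicate 2 Peg3 had a log2 level of 6.76, against 5.98 in the next NeuT- mouse. In NeuT- replicate 1 H2ac8 stood at 10.40 and Bak1 at 7.02, and in NeuT- replicate 6 Tnfaip3 stood at 10.95. In NeuT- replicate 9 Stat3 stood at 9.96, Klf9, a glucocorticoid-induced factor, at 8.69, and Stat2 at 9.22, and in NeuT- replicate 4 the clock repressor Bhlhe40 stood at 8.57. Among NeuT+ mice, replicate 7 had Tnfaip3 at 11.90 and Rel at 7.94, replicate 2 had Relb at 7.69 and Ccne2 at 8.44, replicate 9 had Dusp4 at 5.75, and replicate 3 had Erbb2 at 4.91. Dusp4 and Erbb2 were detected in no 12-week mouse.

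The genotype effect at 12 weeks differed from that at 24 weeks by limma's test in 13 of the genes named, each more positive at 12 weeks. The differences were 1.69 log2 units for Peg3, 0.92 for Apold1, 0.90 for Ciart, 0.87 for Ppp1r15a, 1.20 for Bmf, 0.73 for Dusp10 and 0.48 for Dusp4. They were 1.20 for Spib, 0.41 for Mcm6, 0.89 for Kynu, 0.73 for the clock factor Rora, 1.43 for Cd69 and 0.96 for the kallikrein Klk1b5. Of these genes Dusp4 and Apold1 were at or near background at 12 weeks, so their listed differences are not reliable as sizes. Among all 11309 genes 360 differed, 265 more positive at 12 weeks.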

How the results depend on the processing

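At 12 weeks 17 genes were called. The count was 32 on the deposited log2 values, 31 without background correction, 33 with the mean of detected probes, 26 on the 18 arrays alone and 38 with array weights, which held all 17. It was 2 without a block, 4, 10 and 1 without series 11, 12 and 15, and 2 to 41 with 1 mouse left out (2 without NeuT- replicate 1, 41 without NeuT- replicate 6). Median scaling called 20, of which 95% were higher, against 82.4% as reported. The count of genes differing between 12 and 24 weeks, 360, was 183 with median scaling, 224 without a filter, 125 without a block, 130 with number range as block, 568 with array weights, 32 and 215 without series 12 and 15, and 215 to 424 with 1 mouse left out. Between 12 and 6 weeks it was 1 with number range as block, 2 without series 12 and 0 to 1 with 1 mouse left out. Genes without overlap numbered 25, 33 and 68 without series 11, 12 and 15, where fewer mice make it easier, and 3 to 14 with 1 mouse left out. The cause of the other moves was not tested. Over 592 values of the 17 genes none changed sign and 258 lost the call. Of 3384 values over 97 genes 29 changed sign, none of a called gene. With the mean of probes these were Tnfrsf1b (-0.0167) and Irf1 (0.0187), without series 11 Tnfrsf1b (-0.0323), without series 12 Dph1 (0.0188) and Mx2 (0.0553), and without series 15 Aurkc (0.140). Within series 11 they were Kif11 (-0.0521), Impact (-0.0994), Aurkc (0.0797) and Klk1b5 (0.0482). Within series 12 they were Il1r2 (-0.0518), Tnfrsf1b (-0.0246), Clec4e (-0.112), Syk (0.126), Etv3 (-0.0958), Spib (0.236), Kynu (-0.0439), Isg15 (-0.284), Rora (-0.128), Zfp954 (-0.0636) and Aurkc (0.189). Within series 15 they were Tab1 (0.0169), Cxcr4 (-0.132), Tnfrsf1b (-0.0391), Cebpb (-0.00584), Haao (0.0201), Dnajc24 (0.00971), Dph1 (0.0849) and Mx2 (0.0968). Of 1435 list medians 42 moved by more than the spread. Outside single series the p53 targets ran from 0.08 to 0.51, NF-kB inhibitors from 0.07 to 0.25, cytokines from -0.01 to 0.14, immediate early genes from 0.28 to 0.43 and histones from -0.32 to -0.14. Signals near background limit the size of Peg3, whose log2 change ran from 4.26 to 6.50 outside single series. They also limit the sizes of Apold1, Osr2, Cd160, Cxcl1, Spint1 and Nlrp3. A slide block was not run, since no header gives the slide. No paired analysis was run: single NeuT+ mice were not matched to single NeuT- mice, and sibling groups were not modelled.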

Other observations

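Clock and glucocorticoid genes were looked at after their values were seen. Per1, a clock repressor that glucocorticoids also induce, had a log2 change of 0.91 ± 0.232 (SE, n = 9 and 9, adjusted p = 0.0854), with levels from 10.58 to 11.58 in NeuT+ mice and from 8.89 to 11.20 in NeuT- mice. Rora, an activator of the clock, had 0.44 (adjusted p = 0.0854) and was detected in 3 NeuT+ mice and no NeuT- mouse, with medians of 5.51 and 5.57. Bhlhe40 had 0.35, Klf9 0.51 and the phosphatase Dusp1 0.33 (adjusted p = 0.21 to 0.441). Of 14 measured clock genes and 12 glucocorticoid response genes none passed limma's threshold, 4 of each were higher at an unadjusted p under 0.05, beside 4.09% of all genes, and the medians were 0.08 and 0.13.

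The kallikreins Klk1b5 and Klk1, secreted proteases of chromosome 7 with near-identical copies, had negative changes at all 3 ages and passed at 24 weeks alone. Klk1b5 had log2 changes of -0.66, -0.40 and -1.36 at 6, 12 and 24 weeks, and Klk1 had -0.63, -0.44 and -1.37. At 12 weeks all 9 NeuT+ mice lay below the NeuT- median in Klk1b5 and 8 of 9 in Klk1. Also on chromosome 7, Plaur, the urokinase receptor, had 0.55 and Sertad3, a transcriptional coregulator, had 0.45 at 12 weeks (adjusted p = 0.0931 and 0.0854). These genes were chosen after their values were seen.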
